A study of Oryza sativa Japonica Group with 9 samples.

Results

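The 8 genes described here encode chloroplast enzymes of the reduction and regeneration phases of the Calvin cycle. They were taken by locus name from a list (GAPA, GAPB, cpTPI, cpFBA, cpFBP, TKT, SBP and PRK), out of 55719 named loci in the expression tables. This list and those of other genes below were chosen with earlier results of these data known. Counts beside the shares of all tested loci are therefore descriptions. Their mRNA was measured by RNA sequencing in shoot apices of rice (cultivar Hwayoung) 5 days old, in 2 libraries each of wild type, of a wox11 mutant and of a jmj705 mutant. An apex here is the 2 to 3 mm tip of the shoot, cut under a microscope, and holds the meristem with young leaves and stem. Plants of all groups grew on a sucrose medium, at 28 °C in the light (14 h) and 24 °C in the dark (10 h). WOX11 is a homeobox transcription factor, and JMJ705 is a demethylase of lysine 27 of histone H3. Its chromatin sites were mapped with an anti-FLAG antibody in apices that over-express JMJ705 in an otherwise wild-type background (oxJ5) or in the wox11 mutant (wox11/oxJ5), with 1 peak list each. The alleles, their lesions, the promoter of the over-expressed gene and the hour of harvest are given by none of the labels. RefSeq gives names in keeping with the list to cpFBP and cpFBA, and the names of the other 6 rest on the list.

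In the Calvin cycle, Rubisco fixes carbon dioxide to make phosphoglycerate. The reduction phase turns this into triose phosphate, at a step run by a glyceraldehyde-phosphate dehydrogenase built from GAPA and GAPB subunits. The regeneration phase then rebuilds ribulose bisphosphate, the acceptor of carbon dioxide, through aldolase, bisphosphatases, transketolase and, last, phosphoribulokinase. In leaves, light switches several of these enzymes on through thioredoxins, and their genes are induced as plastids become chloroplasts.

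Expression is given as FPKM (fragments per kilobase of transcript, scaled to the number of fragments of the library), which allows levels of different genes to be compared per length. A log2 change is a difference of log2(FPKM + 1) between genotypes, and this understates changes of low genes. A gene is said to rise or fall only where limma's Benjamini-Hochberg adjusted p over 21480 tested loci was under 0.05. All 8 genes were among the tested loci. Total read numbers are unknown. The authors' bounds around an FPKM lay 33.8 to 37.8% of it to each side for GAPA, GAPB, cpTPI, cpFBA and TKT. They were wider for SBP (38.5 to 47.0%), PRK (44.6 to 54.6%) and cpFBP (64.0 to 92.0%), the 3 genes with the lowest levels.

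The libraries were checked against their labels. WOX11 mRNA stood at 4.52 and 5.00 FPKM in wild type and at 1.49 and 1.11 in wox11. JMJ705 mRNA stood at 7.41 and 6.73 FPKM in wild type. In the libraries labelled jmj705 it was higher, not lower, at 13.7 and 12.5 FPKM. Neither difference passed limma's test (adjusted p = 0.0575 for WOX11 in wox11 and 0.0634 for JMJ705 in jmj705). The mRNA level does not bear out the label jmj705, and without a known lesion it cannot contradict it. Every direction below for the libraries labelled jmj705 rests on that label. Correlations between libraries were 0.962 to 0.987 over tested loci. All 4 KNOX genes used as markers of the meristem (OSH1, OSH15, OSH71 and OSH6) were present in every library, at 16.8 to 69.2 FPKM, and both seed markers, GLUA1 and AMY1A, stayed under 1 FPKM, AMY1A being listed at 0 in wox11 replicate 2. The GLUA1 entry spans 11817 bp on coordinates shared with another locus, and the RefSeq gene has 0.170 of that length.

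Of the 8 genes GAPA alone passed the test, and differences between genes were not tested. GAPA fell to 41.3 to 46.6% of its wild-type mean in the 4 mutant libraries. cpFBA and SBP had lower values in every mutant library without passing the test, and cpFBP and PRK had their lowest values in the libraries labelled jmj705. GAPB, cpTPI and TKT had log2 changes of -0.12 to 0.23 and did not pass the test. In wox11 against wild type, 1 of 8 genes fell and 0 rose by limma, where 0.382% and 0.456% of all tested loci fell and rose (0.838% in either direction). At an unadjusted p under 0.05, 3 were lower and 0 higher, beside 5.84% and 4.7% of all tested loci. In the libraries labelled jmj705 against wild type, 1 of 8 fell and 0 rose, against 0.0791% and 0.321% of all tested loci (0.4% in either direction), and at an unadjusted p under 0.05, 5 were lower and 0 higher, beside 5.85% and 6.15%. In jmj705 against wox11 limma called 0 of 8, against 0.284% of all tested loci (0.112% lower, 0.172% higher), and at an unadjusted p under 0.05, 1 gene was lower and 0 higher, beside 3.08% and 4.23%. The median log2 change of the 8 genes was -0.12 for wox11 and -0.63 for the libraries labelled jmj705, beside -0.016 and -0.018 over all tested loci. Both mutants were compared with the same wild-type libraries, so their changes are not independent of each other. In bulk tissue, fewer green cells and less mRNA per cell cannot be told apart.

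**Figure D1:**
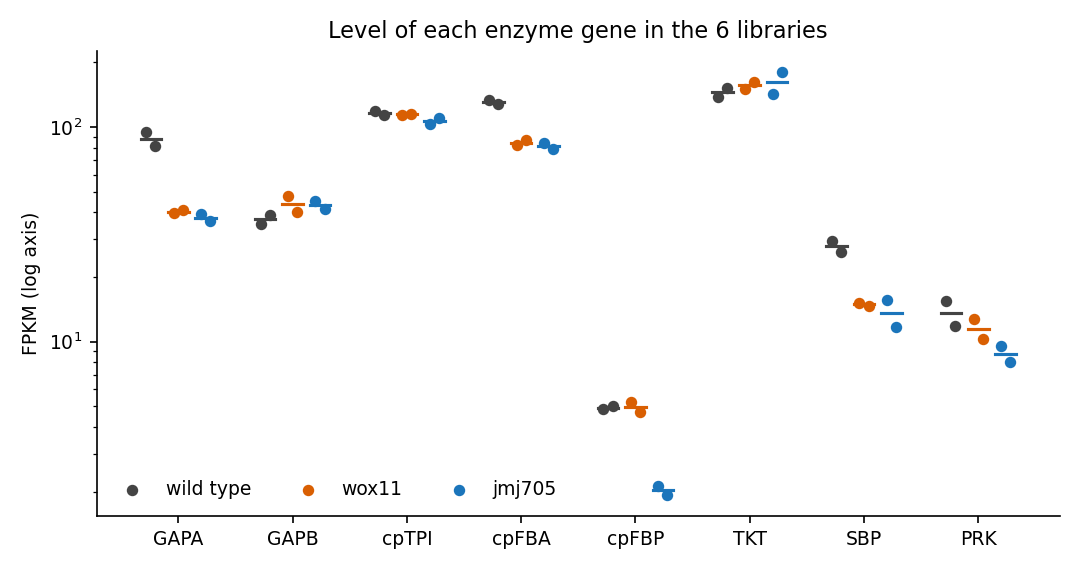
FPKM of each gene (log axis) in the 6 libraries, with 1 point per library and a line at the mean of each genotype. GAPA, cpFBA and SBP lie lower in all 4 mutant libraries than in wild type, cpFBP lies lowest in the jmj705 libraries, and TKT lies highest in each genotype.

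GAPA (LOC_Os04g38600, chromosome 4, 22937056 to 22939073) encodes the A subunit of the chloroplast dehydrogenase of the reduction step. It stood at 94.7 and 81.4 FPKM in the wild-type libraries, 39.6 and 41.0 in wox11, and 39.3 and 36.4 in the libraries labelled jmj705. The 4 mutant libraries lay close together and under both wild-type libraries. The authors' bounds still met in 2 of 4 pairs of a wox11 and a wild-type library. For the libraries labelled jmj705 they met in 1 of 4 pairs. GAPA fell in wox11 (log2 change -1.10, SE 0.12, limma adjusted p = 0.0122) and in the libraries labelled jmj705 (-1.19, SE 0.12, adjusted p = 0.0145). In wox11 the call ended with no FPKM filter (adjusted p = 0.0818) and without wild-type replicate 1 (0.0721), wox11 replicate 1 (0.123) or wox11 replicate 2 (0.117), and adjusted p ran from 0.00869 to 0.123 over 15 alternatives. Its jmj705 call ended without wild-type replicate 1 (0.103), jmj705 replicate 1 (0.0787) or jmj705 replicate 2 (0.141) (lowest 0.0126, highest 0.141 over all alternatives).

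GAPB (LOC_Os03g03720, chromosome 3, 1662172 to 1665576) encodes the partner subunit, which carries a regulatory extension at its C-terminal end. Its values were 35.3 and 39.0 FPKM in wild type, 47.5 and 40.3 in wox11, and 45.0 and 41.4 in the libraries labelled jmj705. All mutant libraries lay above the higher wild-type one, the closest of them by a small margin. The log2 change was 0.23 in wox11 (95% interval -0.076 to 0.54, adjusted p = 0.632) and 0.21 in the libraries labelled jmj705 (-0.095 to 0.52, adjusted p = 0.586). These intervals do not reach the fall seen for GAPA.

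The balance of the 2 subunit mRNAs shifted with genotype, as a description of the values above. The ratio of GAPA to GAPB, both in FPKM, was 2.68 and 2.09 in the wild-type libraries, 0.833 and 1.02 in wox11, and 0.872 and 0.880 in the libraries labelled jmj705. The wild-type ratios lay apart from the 4 mutant ratios. With 2 libraries per genotype no permutation test of a ratio can reach 0.05, and none was made.

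**Figure D2:**
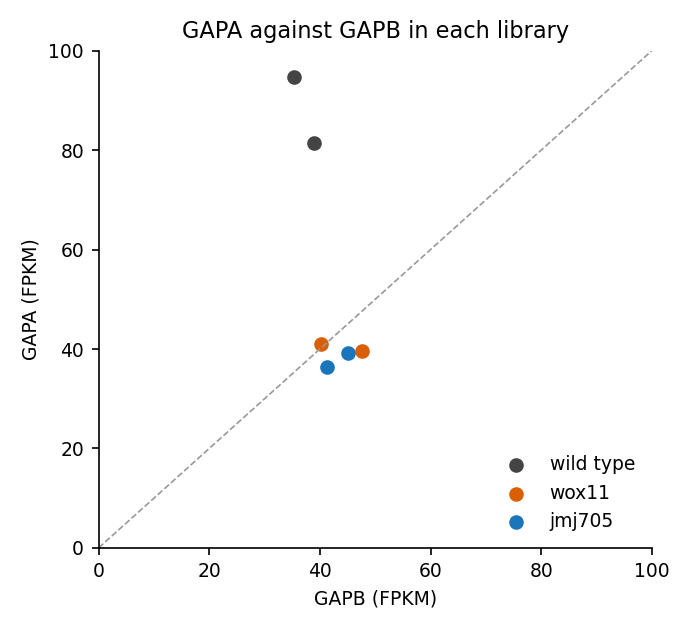
GAPA against GAPB in FPKM, 1 point per library, with a dashed line where both are equal. The wild-type points lie far above the line at 94.7 and 81.4 FPKM of GAPA, and of the 4 mutant points 1 lies just above it and 3 under it.

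cpTPI (LOC_Os09g36450, chromosome 9, 21033055 to 21036527), the triose-phosphate isomerase that supplies aldolase with its second substrate, was nearly level. It stood at 119 and 114 FPKM in wild type, 114 and 116 in wox11, and 103 and 110 in the libraries labelled jmj705. The wild-type and wox11 libraries overlapped, and the jmj705 pair lay just under them. Its log2 change was -0.017 in wox11 (95% interval -0.30 to 0.26) and -0.12 in the libraries labelled jmj705 (-0.40 to 0.16), with adjusted p = 0.977 and 0.755. The wox11 value turned to 0.045 with quantile normalization.

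cpFBA (LOC_Os11g07020, chromosome 11, 3488553 to 3491659) encodes a plastid fructose-bisphosphate aldolase, which joins triose phosphates to larger sugars. Its values were 134 and 129 FPKM in wild type, 82.2 and 87.0 in wox11, and 84.7 and 79.2 in the libraries labelled jmj705. The mutant libraries lay between 60.3 and 66.2% of the wild-type mean, and the groups did not overlap. With a log2 change of -0.63 (SE 0.12, adjusted p = 0.077) in wox11 and -0.67 (SE 0.12, adjusted p = 0.079) in the libraries labelled jmj705 it missed the threshold. With the replicate number as a block it passed in wox11 (adjusted p = 0.0457), and adjusted p ran from 0.0457 to 0.528 over the alternatives, and in the libraries labelled jmj705 it passed under none (0.060 to 0.346). The ratio of cpFBA to cpTPI was 1.13 in both wild-type libraries and 0.717 to 0.821 in the 4 mutant libraries.

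cpFBP (LOC_Os03g16050, chromosome 3, 8841268 to 8843069), a chloroplast fructose-1,6-bisphosphatase, was the lowest of the 8 genes in level. It stood at 4.83 and 5.02 FPKM in wild type, 5.22 and 4.70 in wox11, and 2.12 and 1.94 in the libraries labelled jmj705. The wild-type and wox11 libraries overlapped, and both jmj705 libraries lay under all of them. Its log2 change was 0.0069 in wox11 (95% interval -0.34 to 0.35, adjusted p = 0.992) and -0.97 in the libraries labelled jmj705 (SE 0.15, adjusted p = 0.0555). Set directly against wox11, the libraries labelled jmj705 differed by -0.98 (SE 0.15, adjusted p = 0.0681). Both of the latter missed the threshold and passed only in a fit without the mean-variance trend (adjusted p = 0.0443 and 0.0448), with 0.253 and 0.479 as the highest values over all alternatives. The authors' bounds of every jmj705 library met those of every wild-type library for this gene, as they did for cpFBA, GAPB, cpTPI, TKT and PRK. For SBP 3 of 4 such pairs met.

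TKT (LOC_Os06g04270, chromosome 6, 1808766 to 1812362), a transketolase that moves units of carbon between sugar phosphates, was the most abundant of the 8. Its values were 138 and 152 FPKM in wild type, 150 and 162 in wox11, and 142 and 181 in the libraries labelled jmj705. All 3 genotypes overlapped. The log2 change was 0.11 in wox11 (95% interval -0.27 to 0.48, adjusted p = 0.884) and 0.14 in the libraries labelled jmj705 (-0.23 to 0.52, adjusted p = 0.795), the second resting on jmj705 replicate 2, without which it was -0.029.

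SBP (LOC_Os04g16680, chromosome 4, 9075139 to 9077888) encodes sedoheptulose-1,7-bisphosphatase, which commits sugar phosphates to regeneration and whose amount is known to limit the cycle in leaves of several plants. Values were 29.5 and 26.2 FPKM in wild type, 15.1 and 14.7 in wox11, and 15.6 and 11.7 in the libraries labelled jmj705. Every mutant library lay at 41.9 to 55.9% of the wild-type mean. The log2 change was -0.86 (SE 0.16, adjusted p = 0.0695) in wox11 and -0.99 (SE 0.16, adjusted p = 0.0603) in the libraries labelled jmj705, both short of the threshold. In wox11 it passed with the replicate block (adjusted p = 0.048) and without jmj705 replicate 1 (0.0451) or 2 (0.0453) (lowest 0.0451, highest 0.374 over all alternatives). Against wild type, the libraries labelled jmj705 passed for SBP at a minimum of 5 FPKM (0.0444) (lowest 0.0444, highest 0.283 over all alternatives).

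PRK (LOC_Os02g47020, chromosome 2, 28700888 to 28706326) encodes phosphoribulokinase, which makes the acceptor of carbon dioxide. It stood at 15.5 and 11.8 FPKM in wild type, 12.7 and 10.3 in wox11, and 9.499 and 8.06 in the libraries labelled jmj705. Wild type and wox11 overlapped, while the jmj705 pair lay under both. The log2 change was -0.23 in wox11 (95% interval -0.65 to 0.19, adjusted p = 0.745) and -0.58 in the libraries labelled jmj705 (SE 0.18, adjusted p = 0.26). Its coordinates are shared with LOC_Os02g47030, which had 2.73 to 3.61 FPKM, so reads could be divided between the 2 entries.

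**Figure D3:**
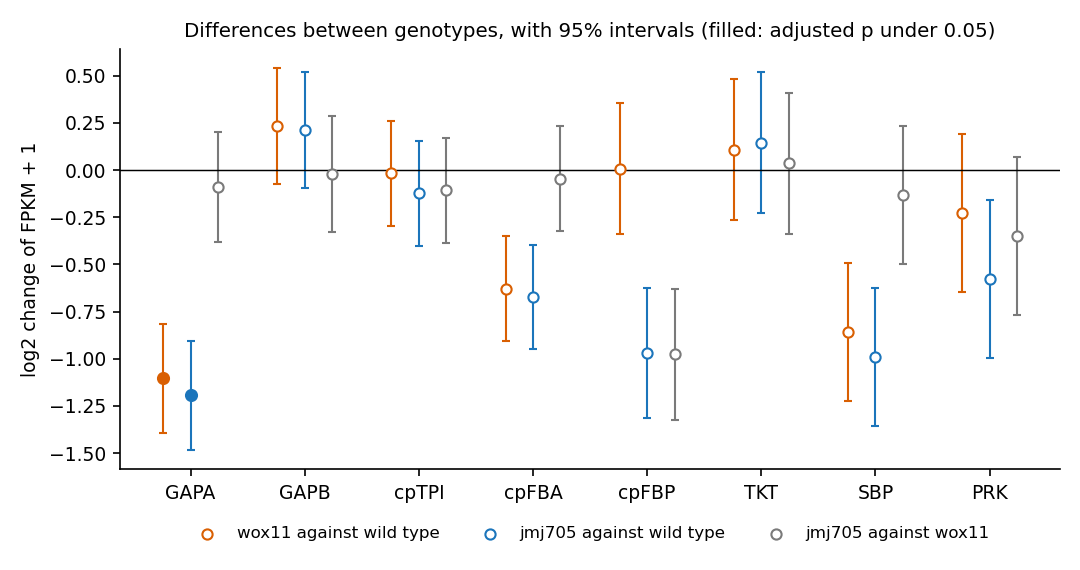
Log2 change of FPKM + 1 for each gene in 3 comparisons, with 95% intervals from limma and filled points for an adjusted p under 0.05. Only GAPA has filled points, at -1.10 and -1.19, and cpFBP is the gene whose interval against wox11 lies wholly under 0.

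Counted by genes whose libraries did not overlap, 3 of 8 were lower and 1 higher in wox11 than in wild type, where 22.6% of all tested loci were lower and 20.3% higher by this measure (42.9% together). Likewise, in the libraries labelled jmj705, 6 of 8 were lower and 1 higher than in wild type, against 21.5% and 17.5% of all tested loci (39% together). Against wox11, 4 of 8 were lower there and 0 higher, against 19% and 18.1% (37.1% together). With 2 libraries a side such separation is common, as those shares show.

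Levels followed nearly the same order in each genotype. In wild type it ran TKT, cpFBA, cpTPI, GAPA, GAPB, SBP, PRK and cpFBP, from 145 ± 10.4 to 4.93 ± 0.134 FPKM (SD, n = 2), and no neighbours in it overlapped. In wox11 cpFBA (84.6 ± 3.37 FPKM) came after cpTPI (115 ± 0.942), and GAPA (40.3 ± 1.00) came after GAPB (43.9 ± 5.13), this last pair with overlapping libraries. The libraries labelled jmj705 had the same order as wox11, with GAPA at 37.8 ± 2.05 and GAPB at 43.2 ± 2.61 FPKM. Averaged over the 6 libraries, TKT, cpTPI and cpFBA lay above 94.5 to 96.8% of tested loci, while SBP lay above 64.2% and cpFBP above 25.5%. The 8 genes together summed to 570.4 and 558 FPKM in wild type, 467 and 476 in wox11, and 441 and 470 in the libraries labelled jmj705. TKT made up 24.1 and 27.3% of that sum in wild type and 32.2 to 38.5% in the mutant libraries. The sum was lower in the mutant libraries, while the FPKM of TKT overlapped between genotypes and passed no test.

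Markers of leaf tissue and of time of day also had other levels in the mutant libraries, in which GAPA, cpFBA and SBP were low. Both chlorophyll-binding antenna genes used as leaf markers, CAB1R and CAB2R, were present in every library, and together they summed to 989 to 1011 FPKM in wild type, 234 to 573 in wox11 and 589 to 660 in the libraries labelled jmj705. Neither passed limma's test in wox11 (adjusted p = 0.302 for CAB1R and 0.104 for CAB2R) or in the libraries labelled jmj705 (0.608 and 0.445). The wox11 libraries differed most in these markers, at 573 and 234 FPKM in sum for replicates 1 and 2. The sum of the 4 meristem markers was 162 to 181 FPKM in wild type, 124 to 130 in wox11 and 150 to 199.8 in the libraries labelled jmj705. None of these 4 genes passed limma's test in any comparison. Among clock genes, LHY, which peaks around dawn, stood at 147 and 123 FPKM in wild type, 5.31 and 4.85 in wox11, and 54.1 and 40.9 in the libraries labelled jmj705, and the evening gene GI at 43.9 and 56.6, 197 and 213, and 147 and 140. LHY fell in wox11 (log2 change -4.48, limma adjusted p = 6.2e-05) and in the libraries labelled jmj705 (-1.49, adjusted p = 0.0187). GI rose in wox11 (2.02, adjusted p = 0.00265) and in the libraries labelled jmj705 (1.51, adjusted p = 0.0140). The part of leaf content and of harvest time in the results above was not tested.

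Other genes of carbon metabolism with a RefSeq name were counted beside the 8. Of 5 genes for Rubisco and regulators of the cycle, 3 fell in wox11, and RCA alone in the libraries labelled jmj705. Of all tested loci 0.382% and 0.0791% fell in these comparisons. The median log2 changes of the 5 genes were -0.83 and -0.64, beside -0.016 and -0.018 over all tested loci. The thioredoxin gene TRXF (LOC_Os01g68480), whose product type passes the light signal to enzymes of the cycle, stood at 50.7 and 51.6 FPKM in wild type, 19.97 and 21.5 in wox11, and 32.8 and 32.4 in the libraries labelled jmj705. TRXF fell in wox11 (log2 change -1.27, SE 0.11, adjusted p = 0.00432), a call that ended without wox11 replicate 1 (0.0603) or 2 (0.0624) (lowest 0.00347, highest 0.0624 over all alternatives). TRXF had -0.64 in the libraries labelled jmj705 (adjusted p = 0.0749), and its coordinates are shared with another locus. The TRXF entry spans 7328 bp, and the RefSeq gene has 0.177 of that length. TRXM, also among the 5 genes, has an entry of 225583 bp, of which the RefSeq gene has 0.0050. RCA was called in both mutants. It encodes Rubisco activase and stood at 27.9 and 25.0 FPKM in wild type, 11.4 and 10.5 in wox11, and 14.2 and 14.3 in the libraries labelled jmj705, on coordinates shared with another locus. Its call in the libraries labelled jmj705 (adjusted p = 0.0487) ended with the replicate block (0.0544) and under 13 other alternatives (lowest 0.0358, highest 0.258 over all alternatives). In wox11 the call of RCA (adjusted p = 0.00852) ended with no FPKM filter (0.0575) and without wild-type replicate 1 (0.0604), wox11 replicate 1 (0.0721) or wox11 replicate 2 (0.106) (lowest 0.00454, highest 0.106 over all alternatives).

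Of the Rubisco small-subunit genes, RBCS-C (LOC_Os12g17600) fell in wox11, from 39.8 and 43.4 FPKM in wild type to 24.4 and 21.5 (log2 change -0.83, adjusted p = 0.0319), and it had 27.5 and 28.4 FPKM in the libraries labelled jmj705 (adjusted p = 0.134). Its wox11 call ended under 9 of 15 alternatives, those without any single library among them (lowest 0.0222, highest 0.226 over all alternatives). RBCS-A (LOC_Os12g19381) stood at 112 and 102 FPKM in wild type, 116 and 104 in wox11, and 69.3 and 67.7 in the libraries labelled jmj705 (log2 change there -0.64, adjusted p = 0.107). Against wox11 the latter differed by -0.67 (adjusted p = 0.133), short of the threshold. The RBCS-A entry spans 15944 bp, and the RefSeq gene has 0.073 of that length. Reads of such close relatives can be divided between entries, so these values are uncertain.

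Copies of the same enzymes outside the list of 8 showed no call. Of 8 such genes 7 were tested and 0 passed limma's test in any comparison, with 1 lower at an unadjusted p under 0.05 in wox11, 0 in the libraries labelled jmj705 and 1 higher in jmj705 against wox11, to be read beside the shares of all tested loci at that limit given above. Their median log2 change was -0.24 for wox11 and -0.024 for the libraries labelled jmj705. The glyceraldehyde-phosphate dehydrogenase genes GAPC1, GAPC2 and GAPC3, of the glycolytic kind, were far higher than GAPA. GAPC2 (LOC_Os04g40950) stood at 1633 and 1658 FPKM in wild type, 1344 and 1179 in wox11, and 1280.0 and 1437 in the libraries labelled jmj705. The aldolase genes FBA3 and FBA1 stood at 623 and 801 FPKM and at 574 and 721 FPKM in wild type, well above cpFBA, with log2 changes of -0.24 and -0.29 in wox11 (adjusted p = 0.808 and 0.776).

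**Figure D4:**
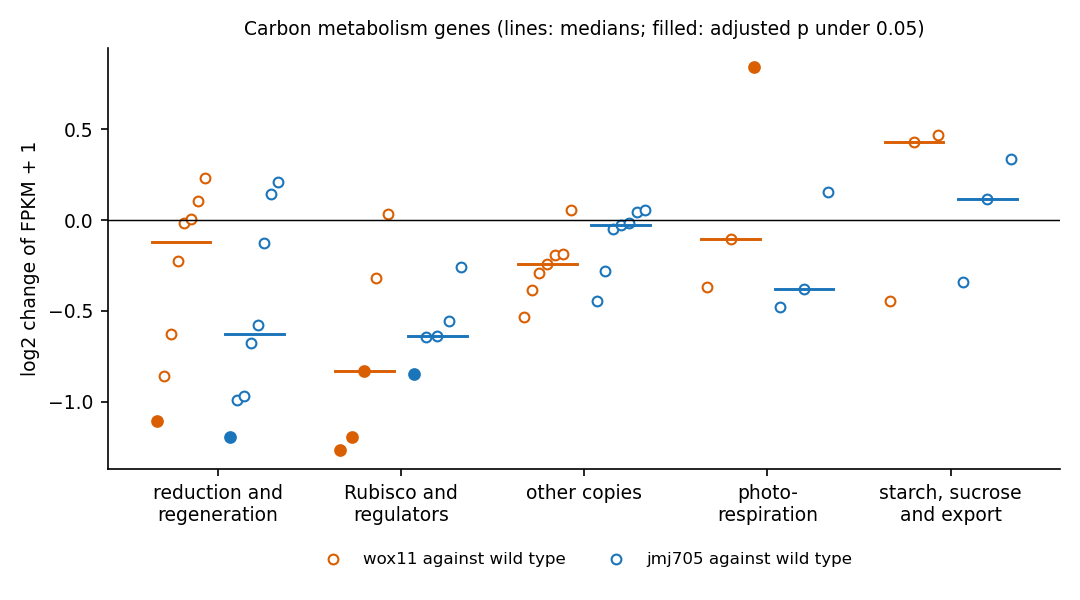
Log2 change of FPKM + 1 of each tested gene in 5 groups of carbon metabolism genes, for both mutants against wild type, with a line at each group's median and filled points for an adjusted p under 0.05. The median of the reduction and regeneration genes is -0.12 in wox11 and -0.63 in jmj705, and that of the other copies is -0.24 and -0.024.

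Of 3 photorespiration genes, GLO1 (LOC_Os03g57220), a glycolate oxidase gene, rose in wox11 and 2 did not pass, where 0.456% of all tested loci rose. It stood at 10.8 and 10.5 FPKM in wild type, 20.3 and 19.7 in wox11, and 7.89 and 8.06 in the libraries labelled jmj705. The log2 change in wox11 was 0.84 (SE 0.12, adjusted p = 0.029), and jmj705 against wox11 fell by 1.22 (SE 0.12, adjusted p = 0.0073). In jmj705 against wox11 0.112% of all tested loci fell. The first call of GLO1 ended with no FPKM filter (0.095) and without either wild-type (0.143 and 0.126) or either wox11 library (0.247 and 0.197) (lowest 0.0186, highest 0.247 over all alternatives). The second ended without wox11 replicate 1 (0.149) or 2 (0.158) or jmj705 replicate 1 (0.0805) or 2 (0.0816) (lowest 0.00798, highest 0.158 over all alternatives). Its relative GLO3 stood at 72.5 and 62.3 FPKM in wild type, 55.3 and 48.8 in wox11 and 70.6 and 79.5 in the libraries labelled jmj705, without a call. None of these 3 genes passed in the libraries labelled jmj705 against wild type. At an unadjusted p under 0.05, 2 had lower and 0 higher values there, beside 5.85% and 6.15% of all tested loci. At that limit 1 was lower and 1 higher in wox11, beside 5.84% and 4.7%. In jmj705 against wox11 1 was lower and 1 higher too, beside 3.08% and 4.23%.

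Of 3 genes of starch and sucrose making and export, limma called 0 in any comparison. At an unadjusted p under 0.05, wox11 had 2 with higher and 1 with lower values, the libraries labelled jmj705 had 1 and 1, and jmj705 against wox11 had 0. The shares of all tested loci at that limit were 4.7% higher and 5.84% lower in wox11, and 6.15% and 5.85% for jmj705. The triose-phosphate translocator gene TPT, whose product carries the cycle's output from the chloroplast, stood at 44.6 and 49.9 FPKM in wild type, 63.4 and 68.3 in wox11, and 55.1 and 65.0 in the libraries labelled jmj705 (adjusted p = 0.237 and 0.377 against wild type), on coordinates shared with another locus. The TPT entry spans 10146 bp, and the RefSeq gene has 0.415 of that length. AGPS2, for a subunit of the enzyme that starts starch synthesis, stood at 85.7 and 91.5, 63.5 and 66.2, and 74.0 and 65.6 FPKM (adjusted p = 0.224 and 0.326).

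The mean profile of the 8 genes over the 6 libraries was compared with 9610 other tested loci that varied by at least 0.5 on the log2 scale. The closest were LOC_Os01g52750, LOC_Os08g27010, LOC_Os08g34150, LOC_Os03g14950, LOC_Os03g03990 and LOC_Os11g07922, with Pearson r of 0.994 to 0.985 over 6 libraries. The most abundant, LOC_Os08g34150, stood at 35.2 and 33.7 FPKM in wild type, 23.9 and 24.0 in wox11, and 17.3 and 16.6 in the libraries labelled jmj705. The 6 libraries share their genotypes, so these r values only describe likeness. Among the 8 themselves, SBP, GAPA and cpFBA followed the mean most closely (r of 0.948, 0.937 and 0.929), while GAPB (-0.644) and TKT (-0.583) had negative r. Each of the 8 is part of that mean, and genes with larger changes weigh more in it. The changes of GAPB and TKT did not pass limma's test.

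JMJ705 peaks were sought within 1 kb of each of the 8 genes. The list from the wild-type background (oxJ5, 1551 peaks) had none near any of them, and 3.95% of all named loci and 4.12% of tested loci had one. For the peak shares of both lists each locus name counted once, which left 54921 named and 21141 tested loci. The list from the wox11 background (wox11/oxJ5, 1309 peaks) had a peak at 2 of 8, cpTPI and TKT, and 3.44% of all named loci and 3.51% of tested loci had one. The lists also differ in depth. After filtering, oxJ5 had 4488720 ChIP and 15531116 control tags, and wox11/oxJ5 had 6811451 and 11816531. The cpTPI peak (chromosome 9, 21036069 to 21036867) lay across the end of the locus with the higher coordinate, with 63 tags, a 15.5-fold enrichment and a false discovery rate of 8.65% in the authors' list. The TKT peak (chromosome 6, 1812928 to 1813893) began 566 bp beyond that locus, with 39 tags, a 7.82-fold enrichment and a false discovery rate of 5.83%. The files give no strand, so it was not settled whether these ends are the starts of the genes. Neither gene passed limma's test in any comparison of genotypes.

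The other 6 genes had no peak within 5 kb in either list. The nearest peak to GAPA lay 277584 bp away in the wild-type background and 145245 bp away in the wox11 background, and the nearest to cpFBP 225294 and 21032 bp. For cpFBA the distances were 30667 and 239873 bp, and for SBP 13283 and 13435 bp. For SBP, PRK and GAPB (149271 and 149316 bp for the last) the nearest peaks of the lists overlapped each other. The nearest peak to PRK lay 8784 and 8626 bp away, with 5125 and 7401 tags and a 2.83- and 1.8-fold enrichment. With 1 list per background the presence of a peak in only 1 of them has no replicate check, and the wox11 list holds 0 peaks at a false discovery rate of 5% or less, so at that limit neither list has a peak near any of the 8. Both lists come from plants that over-express JMJ705, whereas the expression tables do not.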

How the data were processed

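RNA libraries were sequenced from 3 genotypes with 2 replicates each, and Trimmomatic, TopHat and Cufflinks are named in the submitters' processing notes without versions. The deposited tables give FPKM with a lower and an upper bound per locus, per the file headers. MACS 1.4.2 made the peak lists with a p-value limit of 1e-05, from 1 library and its control (5043282 and 7509947 ChIP tags), per the file headers, after Trimmomatic 0.32, Bowtie2 2.1.0 and SAMtools 0.1.17 per the submitters' processing notes. The deposited lists hold tag counts, a score of 10 times the negative log10 p-value, a fold enrichment ratio, and the false discovery rate as a percent. No label or header names the genome build. The input DNA sample was not analysed here. Total RNA depth is unknown.

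Loci with a gene name, no failed estimate and at least 1 FPKM in at least 2 libraries (21480) entered limma 3.58.1 (R 4.3.3) as log2(FPKM + 1); the model had a mean for each genotype, a mean-variance trend and 3 residual degrees of freedom. Loci without a name held 71.2 to 95.3% of summed FPKM and were left out. The series' design text speaks of biological repeats without saying what was kept separate, so p-values measure only the spread between these libraries. Replicate numbers come from the labels, and differences between replicates 1 and 2 correlated across genotypes at 0.292, 0.118 and 0.114 over loci, so a fit with the number as a block is given where it changes a call. Without 1 library, the lone sample of a genotype is assumed to vary like the others. All 8 genes are named, and listed genes are named where limma called them, with up to 3 more per list by level. RefSeq names come from assembly ASM3414082v1 at a like place, which 33 of 65 listed genes have. Of the others 6 are among the 8 genes, and the rest were not used. A like length was not required for a name. The members, lists and tests were chosen with earlier results of these data known. No sequence is printed, since no genome was used here.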

Additional observations from a re-analysis of the deposited data

How the results depend on the processing

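Over 15 alternatives, the 8 genes and the 4 called genes of the other carbon metabolism lists (RBCS-C, RCA, TRXF and GLO1) gave 540 log2 changes, of which 476 kept direction and side of the threshold, 45 lost a call, 7 gained one and 12 turned sign, none of the last from a called value. The cause was not tested. In wox11 the number of the 8 genes called, 1, was 0 with no FPKM filter and 3 with the replicate block, and 0 to 2 without single libraries. In the libraries labelled jmj705 it was 2 at a filter of 5 FPKM and 2 without the mean-variance trend, and 0 to 1 without single libraries. In jmj705 against wox11 it was 1 without the trend and 0 without any single library. Calls over all loci were 180 in wox11, 34 with no FPKM filter and 21 to 182 without single libraries. For the libraries labelled jmj705 they were 86, 55 with quantile normalization and 11 to 86 without single libraries, and in jmj705 against wox11 61 and 11 to 64. With quantile normalization cpTPI in wox11 was 0.045 and TKT in jmj705 against wox11 -0.084. Without single libraries cpTPI in wox11 ran from -0.049 to 0.015, cpFBP in wox11 from -0.055 to 0.069, and TKT in the libraries labelled jmj705 from -0.029 to 0.32. In jmj705 against wox11 GAPB ran from -0.14 to 0.098, TKT from -0.14 to 0.21, cpFBA from -0.093 to 0.0020 and SBP from -0.33 to 0.060. Among these 12 genes the replicate block changed the calls of cpFBA and SBP in wox11 and of RCA in jmj705 and no other. Over all loci it gave 230, 89 and 69 calls in the 3 comparisons. In the wox11/oxJ5 list 1 of the 8 genes had a peak on the locus itself and 0 at a false discovery rate of at most 5%, against 2 within 1 kb, 2 kb or 5 kb, and the oxJ5 list had 0 in each case. Precision is limited by 2 libraries per genotype and by wide bounds for the low genes PRK and cpFBP.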
